A study of Homo sapiens with 2 samples.

Results

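The miR-548 family is a large set of primate-specific microRNAs (miRNAs), and its members were taken as every entry of the deposited miRNA table whose name starts with miR-548. There were 46 such entries among 1178 named miRNAs. They were measured by small RNA sequencing in UM-SCC6, an established human cell line of oral squamous cell carcinoma, in 2 cultures with 1 library each. The first culture was the parental line, and the other, UM-SCC6-M, descends from parental cells that had crossed a matrix channel in a microfluidic chip. It had been through 3 rounds of that selection, and the submitters describe it as invasive with mesenchymal features. With 1 library per group the spread between cultures is unknown and no condition was tested against the other, so each difference below compares these libraries. UM-SCC6-M is 1 selected derivative of 1 line.

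A miRNA is cut from a hairpin RNA, whose 2 arms give a 5p and a 3p product. Bases 2 to 8 of the product, the seed, set most of its pairing with messenger RNAs. The miR-548 hairpins derive from MADE1, a short mobile DNA element whose inverted repeats fold onto each other. Copies of it lie scattered over primate genomes, so the products resemble each other and the reverse complement of the opposite arm. Members have been reported to lower the antiviral interferon lambda gene IFNL1, and miR-548k has been described as a growth-promoting miRNA of oesophageal squamous cell carcinoma.

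The mature sequences below are from RefSeq (GRCh38.p14), which held 31 of the 46 names and 17 of the 21 that were listed above 0 in either library. They are written 5′ to 3′ with the seed in capitals. The first set is shown because its 5 members carry a common run of 17 bases, aaaacugcaguuacuuu, and all stood below their parental level in UM-SCC6-M.
miR-548o-3p: cCAAAACUgcaguuacuuuugc
miR-548ah-3p: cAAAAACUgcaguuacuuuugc
miR-548am-3p: cAAAAACUgcaguuacuuuugu
miR-548av-3p: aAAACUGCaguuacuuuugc
miR-548p: uAGCAAAAacugcaguuacuuu
That run was searched as written in the 2363 RefSeq mature miRNAs long enough to hold it. It was in 5 of them (0.212%), which are these members, and its reverse complement was in 0. The run had been picked as the longest one shared by at least 5 of the 17 listed members with a sequence. Finding it in 5 names was therefore fixed by that choice, and taking the longest run leaves out near carriers. Although the run is shared, these 5 names have 4 different seeds, and only miR-548ah-3p and miR-548am-3p have the same one. miR-548s, not a carrier, shares 15 bases with miR-548o-3p and 13 with each of the other 4, and had 15 UM-SCC6-M reads against 5 parental reads, with an interval that included equality. The second set holds the 3p products without the full run that lay furthest from equality, miR-548ay-3p being the one that was higher.
miR-548u: cAAAGACUgcaauuacuuuugcg
miR-548f-3p: aAAAACUGuaauuacuuuu
miR-548aq-3p: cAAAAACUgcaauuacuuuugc
miR-548ay-3p: cAAAACCGcgauuacucuugca
The third set holds products of the 5p arm, for contrast.
miR-548k: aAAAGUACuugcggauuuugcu
miR-548l: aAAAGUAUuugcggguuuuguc
miR-548b-5p: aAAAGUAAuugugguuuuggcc
miR-548j-5p: aAAAGUAAuugcggucuuuggu
miR-548n: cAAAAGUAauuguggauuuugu
miR-548f-5p: uGCAAAAGuaaucacaguuuuu
miR-548g-5p: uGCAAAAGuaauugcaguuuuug
miR-548b-5p and miR-548j-5p share a seed, and miR-548f-5p and miR-548g-5p share another. Among the 1006 entries of other families with a RefSeq sequence, 0 had the seed of any of the 17 listed members with one. The 17 listed members with a sequence were 19 to 23 bases long and had a GC content of 15.8% to 45.5% (median 35%), against a median of 50% over the 1006 other named entries with a sequence.

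Values are normalized reads, which are the deposited read signal as scaled by the authors. Dividing by the worth of 1 read in each library gave whole reads, with totals of 7699490 (UM-SCC6-M) and 8182958 (parental). Values below 1 were listed as 0, so an entry at 0 can still hold up to 8 UM-SCC6-M reads or 7 parental reads. A log2 ratio below 0 means less in UM-SCC6-M than in the parental library. The range in brackets is the exact 95% interval (Clopper-Pearson) from the reads alone. It covers only counting error and not the spread between cultures or libraries. PCR copies of 1 molecule are counted as separate reads, so it can be too narrow even for counting error. As a check of the labelled cell type, 5 of 7 epithelial marker miRNAs had an entry. All 5 with an entry were above 0 in at least 1 library. Their summed levels were 19623 in UM-SCC6-M and 16344 in the parental library, nearly all from the miR-200 members. The higher sum came from miR-200b-3p (17481 in UM-SCC6-M against 12823). Lower in UM-SCC6-M were miR-200a-3p (1344 against 2674) and miR-200c-3p (1.79 against 2.66), and miR-429 was slightly lower (793 against 845). miR-203a-3p was listed at 2.75 against 0. In both columns the blood markers miR-451a and miR-142-3p and the stromal markers miR-214-3p and miR-145-5p were at 0. Other markers of these lists were above 0 and lower in UM-SCC6-M. For blood, miR-486-5p had a level of 17.9 in UM-SCC6-M and 24.6 in the parental library, and miR-223-3p had no entry. For stroma, miR-143-3p had 4.06 and 10.4, and miR-199a-5p was listed at 0 in UM-SCC6-M and at 1.73 in the parental library. The liver marker miR-122-5p was listed at 0 and 1.99. The muscle markers summed to 111.3 against 337.1 and the endothelial miR-126-3p stood at 519.9 against 968.3, and the part of any of these cell types in the miR-548 values was not tested.

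Of the 46 miR-548 entries, 19 had a UM-SCC6-M value above 0 and 18 a parental value above 0. Both columns were above 0 for 16, only UM-SCC6-M for 3, only the parental column for 2, and 25 were at 0 in both. The shares above 0, 41.3% and 39.1%, were near those of all named miRNAs (42.2% and 42.4%). The levels were low: the median of the listed values was 6.69 in UM-SCC6-M and 7.84 in the parental library, against 14.4 and 15.5 over all named miRNAs above 0. Together the family held 2113 UM-SCC6-M reads, or 0.0274% of the reads recovered from the table (0.0263 to 0.0286), and 3756 parental reads, or 0.0459% (0.0444 to 0.0474).

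**Figure D1:**
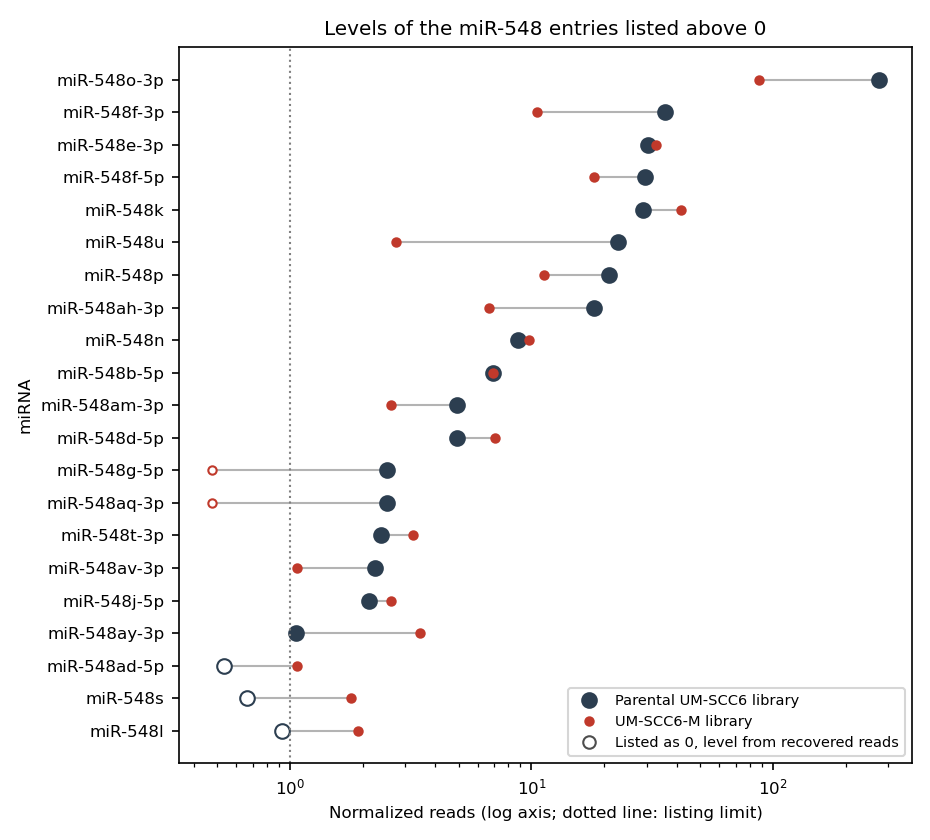
Normalized reads (log axis) of the 21 miR-548 entries listed above 0 in either library, ordered by their parental level. Dark points are the parental library and red points UM-SCC6-M, and open points are entries listed as 0 whose level comes from recovered reads. miR-548o-3p is the most abundant in both libraries, and the widest gap is that of miR-548u.

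The summed miR-548 level was 252.3 normalized reads in UM-SCC6-M and 499.1 in the parental library. It was 1.98-fold lower in UM-SCC6-M (1.87 to 2.09), and 1.67-fold lower with the libraries scaled to their total reads. More than any other member, miR-548o-3p made this difference. Without it the sums were 165.1 and 225.1, which is 1.36-fold lower (1.27 to 1.46), or 1.15-fold lower when scaled to total reads. Members went both ways, 10 lower and 11 higher, and their median log2 ratio was 0.0018, beside -0.034 over all 543 named miRNAs with reads known in both libraries. A member entered this median through its higher library in 5 cases, so it describes the members listed and not the whole family. The counting interval lay wholly below a ratio of 1 for 9 members, wholly above it for 2, and spanned it for 10. With the libraries scaled to total reads it lay below 1 for 8 and above 1 for 5. Over all 543 miRNAs the interval lay wholly below 1 for 32.8% and wholly above 1 for 26.7%.

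Of the members, miR-548o-3p alone reached 50 normalized reads in either library, the floor used for the rule of size over all miRNAs, and it was past 2-fold. At that floor 12.8% of 179 miRNAs were at least 2-fold lower in UM-SCC6-M and 7.26% at least 2-fold higher. Lowering the floor to 10 normalized reads admitted 8 members, of which miR-548o-3p, miR-548f-3p, miR-548u and miR-548ah-3p were at least 2-fold lower and 0 at least 2-fold higher, beside 15.6% and 7.29% of 288 miRNAs. With the floor set on the mean of both libraries 4 of 8 members were lower and 0 higher, beside 14.6% and 6.93% of 274 miRNAs. Without a floor 7 of 21 listed members were at least 2-fold lower and 2 at least 2-fold higher on the log2 ratio with 0.5 reads added. The shares over 543 miRNAs were 19.7% and 10.9%. With no reads added 7 members were lower and 4 higher. Of the lower members, miR-548aq-3p and miR-548g-5p were listed only through the parental column. Of the higher ones, miR-548s was listed only through UM-SCC6-M, as were miR-548l and miR-548ad-5p, which count only with no reads added. miR-548u (2.75 in UM-SCC6-M against 22.9) and miR-548ah-3p (6.69 against 18.1) passed both floors of 10 only through their parental level. Of the 4 lower members, only miR-548o-3p and miR-548f-3p reached 10 normalized reads in UM-SCC6-M as well.

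**Figure D2:**
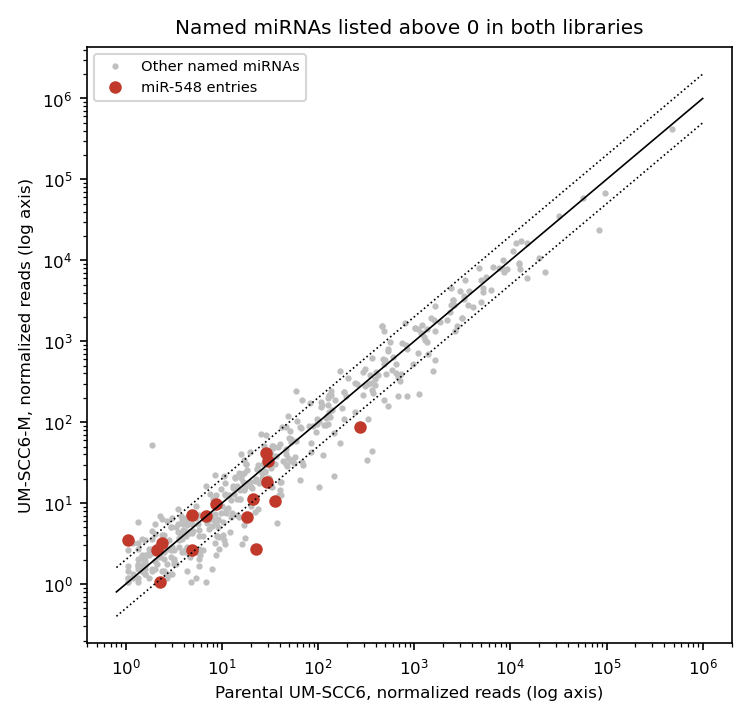
UM-SCC6-M against parental normalized reads (both axes log) of the named miRNAs listed above 0 in both libraries, with equality as a solid line and 2-fold differences dotted. Of the 16 miR-548 entries (red), miR-548o-3p is the most abundant. miR-548o-3p, miR-548f-3p, miR-548ah-3p, miR-548av-3p and miR-548u lie below the lower dotted line, while miR-548ay-3p lies above the upper one.

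The products of the 3p arm were the larger part of the family and were lower as a sum. The arm was taken from the name or, for names without one, from the position of the product in the hairpin, and this split was chosen after the values were seen. The 12 listed 3p members summed to 163.3 normalized reads in UM-SCC6-M and 415.3 in the parental library, 2.54-fold lower (2.39 to 2.71), and 1.85-fold lower (1.68 to 2.05) without miR-548o-3p. Scaled to total reads these became 2.15-fold and 1.57-fold. The 9 listed 5p members summed to 88.96 and 83.85, a log2 ratio of 0.09 (-0.07 to 0.24). This was 0.33 (0.17 to 0.48) when scaled to total reads. Without miR-548k it was -0.21 (-0.41 to -0.0055) under the authors' scaling and 0.03 (-0.17 to 0.24) when scaled to total reads. The ratio was thus above 0 under both scalings with miR-548k, and its direction depended on the scaling only without that member. The 3p arm held 64.7% of the miR-548 reads in UM-SCC6-M (62.7 to 66.8) and 83.2% in the parental library (82.0 to 84.4), shares that do not depend on the scaling. Over the other miRNAs with an arm in the name, the log2 ratio of summed levels was -0.22 for 220 entries of the 3p arm. It was -0.24 for 220 of the 5p arm. The medians of their single log2 ratios were 0.06 and -0.01, beside -0.96 and 0.29 for the listed miR-548 members of these arms. The 3p median rested on the 5 members with the shared run. The 7 other 3p members had a median of 0.11, with 3 lower and 4 higher. Their sum was 1.74-fold lower (1.55 to 1.97), or 1.47-fold lower when scaled to total reads. The 190 other miRNAs with a GC content in the range of the listed members had a median of 0.03 and a log2 ratio of sums of -0.23.

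**Figure D3:**
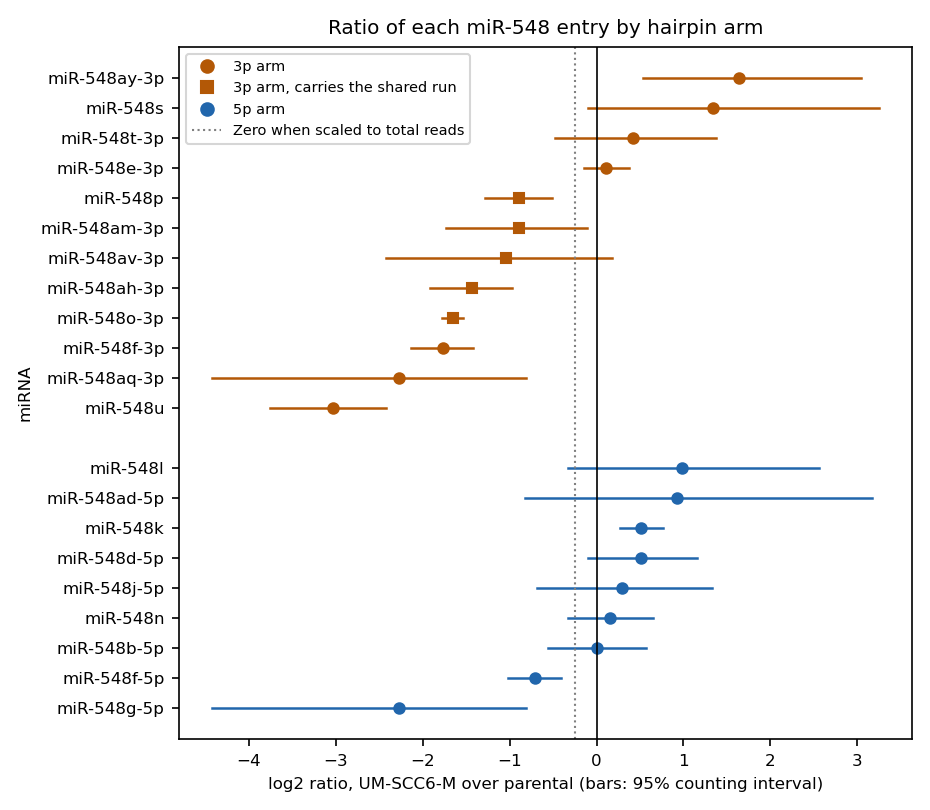
Log2 ratio of UM-SCC6-M over parental for each listed miR-548 entry, with its 95% counting interval, for the 3p arm (orange) and the 5p arm (blue); squares carry the shared run of 17 bases. All 5 squares lie below 0, 4 of the 12 members of the 3p arm lie above it, and the dotted line marks where 0 moves when the libraries are scaled to total reads.

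The members with the shared run, a grouping also made with the values known, summed to 108.8 normalized reads against 320.1, and to 21.6 against 46.1 without miR-548o-3p, which is 2.13-fold lower (1.78 to 2.57). miR-548o-3p, the most abundant member, had 87.17 normalized reads in UM-SCC6-M and 274.0 in the parental library, on 730 and 2062 reads. It ranked 148th and 110th among the named miRNAs and was 3.14-fold lower in UM-SCC6-M (2.89 to 3.43). The authors' deposited table gives it a q-value of 9.16e-17 beside a log2 fold change of -1.6524, figures that compare 1 library with another. The same mature sequence comes from 2 hairpins, so its reads do not tell their origin. On chromosome 20 (38516607 to 38516628, plus strand, GRCh38) it lies in an intron of RALGAPB, a subunit of a GTPase-activating complex for Ral, on the strand of that gene. On chromosome 7 (102405748 to 102405769, minus strand) it lies in an intron of PRKRIP1 on the opposite strand.

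miR-548ah-3p had 6.69 normalized reads against 18.1 (56 against 136 reads) and was 2.70-fold lower (1.97 to 3.76). It lies in an intron of SHROOM3, a regulator of apical constriction in epithelia, on chromosome 4 (76575597 to 76575618, plus strand). miR-548p stood at 11.2 against 20.9 (94 against 157 reads), 1.86-fold lower (1.43 to 2.43), and lies in an intron of the polysialyltransferase gene ST8SIA4. miR-548am-3p stood at 2.63 against 4.92 (22 against 37 reads), 1.87-fold lower (1.08 to 3.33), an interval that included equality when the libraries were scaled to total reads. Its host is CTPS2, which encodes a CTP synthase. miR-548av-3p had 9 against 17 reads, and its interval included equality. These values are not independent measurements. miR-548ah-3p and miR-548am-3p share a run of 21 of their 22 bases. All 20 bases of miR-548av-3p lie within both miR-548o-3p and miR-548ah-3p. How a read that matches several names was counted is not given in the sources used here.

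Among the other 3p products, miR-548u had the lowest ratio of any member, with 2.75 normalized reads in UM-SCC6-M and 22.9 in the parental library (23 against 172 reads). It was 8.32-fold lower (5.37 to 13.5) and lies in an intron of PRIM2, which encodes a DNA primase subunit, on chromosome 6 (57390180 to 57390202, plus strand). miR-548f-3p stood at 10.5 against 35.9 (88 against 270 reads), 3.41-fold lower (2.67 to 4.39). Its sequence is annotated at 5 loci, in introns of PCDH15, ERBB4, TMEM232 and DMD on their own strand and of CNTNAP2 on the other strand. With miR-548o-3p, these were the 3 members marked as selected in the authors' deposited table, of 36 with a fold change there. Over all named miRNAs with one, 5.32% of 827 carried that mark. miR-548e-3p, the third most abundant member in each library, was nearly level at 32.8 against 30.4 normalized reads, with a log2 ratio of 0.11 (-0.15 to 0.37). Higher in UM-SCC6-M was miR-548ay-3p, at 3.46 against 1.06 (29 against 8 reads), 3.26-fold (1.45 to 8.25). miR-548t-3p had 27 against 18 reads and miR-548s 15 against 5, and both intervals included equality.

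Both arms of the miR-548f hairpin were above 0 in both libraries. miR-548f-5p had 18.1 normalized reads against 29.6 (152 against 223 reads), 1.63-fold lower (1.32 to 2.02). The 5p arm had 1.73 times the reads of the 3p arm in UM-SCC6-M and 0.826 times in the parental library. The difference of the log2 ratios of the arms was 1.06 with a counting standard error of 0.23. In RefSeq the 5p product is given for 1 of the 5 hairpins, so the arms may not come from the same loci.

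The remaining 5p products lay near or above equality, apart from miR-548g-5p. miR-548k was the second most abundant member in UM-SCC6-M, with 41.4 normalized reads against 28.97 (347 against 218 reads), and was 1.43-fold higher, a log2 ratio of 0.52 (0.27 to 0.77). It is 1 of the 2 members whose interval lay above equality, the other being miR-548ay-3p. It lies on chromosome 11 (70283986 to 70284007, plus strand) in an intron of PPFIA1, which encodes a liprin scaffold protein, in a region often amplified in squamous cell carcinomas. miR-548d-5p had 59 against 37 reads (log2 ratio 0.51, -0.10 to 1.15), miR-548n 82 against 66 (0.16, -0.33 to 0.65) and miR-548j-5p 22 against 16 (0.29, -0.69 to 1.33). miR-548b-5p was level, at 58 against 52 reads and 6.93 against 6.91 normalized reads. miR-548l had 16 against 7 reads and miR-548ad-5p 9 against 4, and each was listed as 0 in the parental column. The intervals of these 6 members included equality, and that of miR-548d-5p lay above it when the libraries were scaled to total reads, as did those of miR-548e-3p and miR-548s.

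**Figure D4:**
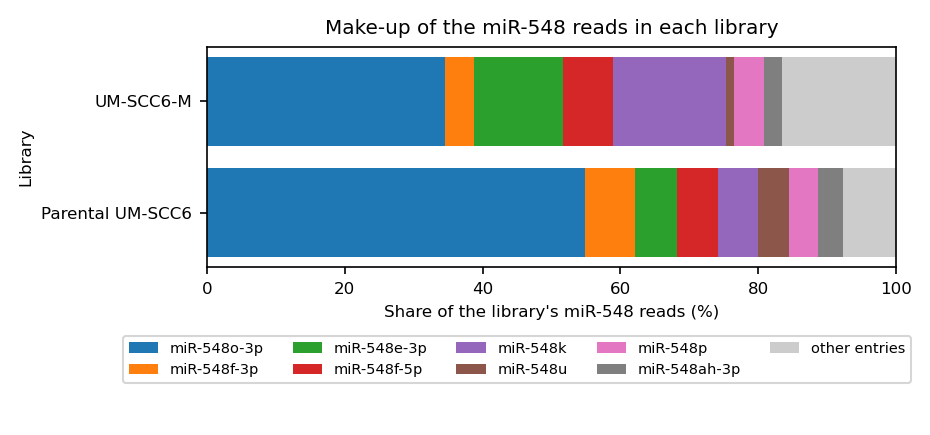
Share of each library's miR-548 reads (%) held by the 8 most abundant members of the parental library and by the other entries. miR-548o-3p takes 54.9% in the parental library and 34.5% in UM-SCC6-M, and miR-548k takes 5.80% and 16.4%.

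The make-up of the family therefore differed between the libraries. miR-548o-3p held 54.9% of the parental miR-548 reads (53.3 to 56.5) and 34.5% of those in UM-SCC6-M (32.5 to 36.6). miR-548k held 5.80% (5.08 to 6.60) and 16.4% (14.9 to 18.1), and miR-548e-3p 6.10% and 13.0%. These shares are free of the scaling between libraries, and those of the members must sum to the whole, so a lower share of 1 raises the others.

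miR-548g-5p and miR-548aq-3p had the same values, 0 in UM-SCC6-M and 2.52 normalized reads in the parental library, on 4 against 19 reads each. They come from different hairpins, on chromosome 4 (147344681 to 147344703, minus strand, in no annotated gene) and on chromosome 3 (185767847 to 185767868, minus strand, in an intron of IGF2BP2). All 22 bases of miR-548aq-3p are complementary to miR-548g-5p, as their sequences above show when 1 is read backwards. Over the whole table, 30 pairs of names with reads known in both libraries had a complementary run of at least 18 bases, and 14 of these pairs had read counts within 5% of each other in both libraries. miR-548u has a complementary run of 17 bases with miR-548g-5p and shares 17 bases with miR-548aq-3p. The value that both names carry was 5.29-fold lower in UM-SCC6-M (1.76 to 21.4), and whether the same reads were counted under both names was not tested. Both names enter the counts and sums above. With the pair counted once the summed level had a log2 ratio of -0.98 and 8 intervals lay below 1, while the 3p arm stood at -1.34 without miR-548aq-3p and the 5p arm at 0.13 without miR-548g-5p.

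The hairpins of the listed members lay far apart. The 17 members with a RefSeq position had 22 loci on 12 chromosomes, with both arms of the miR-548f hairpin in PCDH15 counted separately. Of these loci, 18 lay in an intron of a gene on the same strand (GENCODE release 29). A further 2 lay in an intron of a gene on the opposite strand only, 2 in no gene and 0 in an exon. miR-548b-5p lies in an intron of FAM184A, miR-548j-5p of TPST2, miR-548l of the DNA repair gene MRE11, miR-548n of DPY19L1 and miR-548s of the lipid phosphatase gene LPIN1. Host transcripts were not measured here.

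Of the 25 entries at 0 in both columns, 15 had a log2 fold change in the authors' deposited table, which fixes the ratio of their hidden reads. Reads were equal for 6, more numerous in UM-SCC6-M for 4 and in the parental library for 5. The ratio allowed a single pair of counts for 6 of them. These were miR-548a-3p (5 UM-SCC6-M against 4 parental reads), miR-548ap-3p (8 against 3), miR-548ar-3p (2 against 7), miR-548az-5p (1 against 4), miR-548d-3p (5 against 7) and miR-548j-3p (4 against 5). No interval was computed for these small counts, and their differences were not tested. For miR-548d and miR-548j the listed arm was thus 5p while the 3p arm stayed under the listing limit, and likewise miR-548b-5p was listed and miR-548b-3p was not. For miR-548t it was the reverse, with miR-548t-3p listed and miR-548t-5p at 0 in both columns. The other 10 entries have neither a value above 0 nor a fold change in the table.

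Other miRNAs reported to overlap mobile elements were set beside the family. Of miR-570 and miR-603, which are also assigned to MADE1, miR-570-3p and miR-570-5p were listed at 0 in both libraries and miR-603 had no entry. Of 17 miRNAs assigned to other repeats, 14 had an entry, and 13 of their products reached 50 normalized reads in either library. Among these 13 products, 2 were at least 2-fold higher in UM-SCC6-M (miR-374b-5p, 3.30-fold, and miR-28-3p, 2.07-fold) and 1 at least 2-fold lower (miR-584-5p, 2.86-fold). Their median log2 ratio was 0.11, beside 0.04 over all named miRNAs at that floor. miR-151a-3p was the most abundant, at 10688 against 20054 normalized reads. Several of these products were far more abundant than miR-548o-3p, such as miR-340-5p at 1256 against 1163 normalized reads.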

How the data were processed

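Per the labels' protocols, each small RNA library was built from 3 µg of total RNA by adapter ligation and cut from a gel at 140 to 160 bp. The authors deposited 1 table of 1213 entries, of which 1178 are named miRNAs. Bowtie is named without a version, per the submitters' processing notes. The genome build, miRNA release, counting and scaling method are not given in the sources used here. Its columns hold a read signal scaled by the authors in 1 column per library, and the authors' own log2 fold change, p-value, q-value and mark for selected miRNAs, per the file headers.

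All listed values were whole multiples of the worth of 1 read, 0.119 in UM-SCC6-M and 0.133 in the parental library, within 7.2e-05 reads. Where 1 column was 0, the deposited fold change gave the reads, whole within 0.00023. Log2 ratios of single miRNAs, and fold differences of the miRNAs assigned to other repeats, used the scaled values with 0.5 reads added to each library. Log2 ratios of sums, the other fold differences, the difference between the miR-548f arms and all intervals used none. No count test was made, with 1 library per group. All listed miR-548 entries were named. Members and lists were chosen with earlier results of these data known. Loci are RefSeq positions (GRCh38.p14) set against GENCODE release 29 (GRCh38). The scripts were tested on simulated data. Python 3.11.15, numpy 2.4.6, pandas 2.3.3, scipy 1.17.1 and matplotlib 3.10.9 were used.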

Additional observations from a re-analysis of the deposited data

How the results depend on the processing

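Scaling to total reads moves every log2 ratio up by 0.24, the trimmed mean of M-values by -0.02 and the median of ratios by 0.04. The log2 ratio of the summed miR-548 level, -0.98, became -0.74 under scaling to total reads and -0.45 without miR-548o-3p. That of the 3p arm, -1.35, became -1.10 and -0.89, and that of the 5p arm, 0.09, became 0.33 under scaling to total reads and -0.21 without miR-548k. Leaving miR-548aq-3p out of the 3p arm gave -1.34 and miR-548g-5p out of the 5p arm 0.13. These 2 alternatives, the arm sums and the floor on the mean of both libraries were chosen after seeing the data. The median log2 ratio of the members, 0.0018, was 0.24 with total reads, -0.016 with the trimmed mean, 0.045 with the median of ratios, -0.0099 with 5 reads added, -0.35 over the 16 members above 0 in both columns and 0.056 with contained sequences counted once, so it gave no direction. The 1 member past the size rule toward lower values became 4 at a floor of 10 normalized reads (higher library or mean), 7 without a floor and 0 at 4-fold, and the 0 toward higher values became 2 without a floor. Entries counted as detected went from 19 in UM-SCC6-M and 18 in the parental library to 6 and 8 at 10 normalized reads. With at least 1 recovered read the count was 36 in each. Reads under the listing limit were recovered only through a deposited fold change, which 36 entries had, so that equality follows from the method. Entries with a few reads in 1 library only would be missed. Of single members, miR-548o-3p moved beyond its counting interval under scaling to total reads, to -1.41, and miR-548b-5p changed sign under the trimmed mean (-0.016) and with 5 reads added (-0.0099). The other ratios stayed within their intervals under these scalings, with 5 reads added and with the deposited fold changes. No paired analysis was possible because each group has 1 library.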
